A study of Mus musculus with 24 samples.

Results

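Chemokine ligands are the genes whose symbol is Ccl, Cxcl, Cx3cl or Xcl followed by a number and at most 1 letter. They were read from the deposited table of a mouse glioma series. The table held 46 such rows among 55938 genes, with 40 distinct symbols, since Ccl19, Ccl21a, Ccl21b and Ccl27a had more than 1 row. Of the 46 rows, 23 reached 10 counts in at least 4 of 24 libraries, against 18959 rows of the whole table. Those 23 entered the fit over all libraries and the fit over surrounding cells, and 13 entered the fit over glioma cells. Together with Ccl21b, Ccl24 and Cxcl3, which reached a mean of 1 CPM (counts scaled to library size) in at least 1 group, they make up the 26 ligands described singly here.

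Chemokines are small secreted proteins that bind receptors with 7 membrane passes and direct the movement of leukocytes along their gradients. In the brain they are known from microglia, astrocytes, vessels and neurons, and in glioma they are studied as signals that draw monocytes, neutrophils and T cells to the tumour. Cx3cl1 and Cxcl16 are made as membrane proteins whose chemokine part can be shed, whereas the other ligands are secreted directly.

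The series compared sorted cells of 12 mouse gliomas raised by in-utero transfer of PDGFB, a growth factor of the PDGF family, into the embryonic telencephalon. From each tumour, fluorescent cells (glioma) and cells lacking fluorescence (surrounding) were sorted into a library each. The surrounding cells therefore came from tumour-bearing brains, and no brain without a tumour was compared here. Asymptomatic animals gave 4 tumours at 33 to 34 days from transduction (3228A, 3228B, 3228D, 3229B). Symptomatic animals gave 4 early tumours at 35 to 50 days (3108C, 3108D, 3109D, 3145A) and 4 late tumours at 100 to 175 days (3054A, 3054B, 3054C, 3057E). The fluorescence label of the glioma library is red for 3057E and green for the other 11 tumours.

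Library totals lay between 9.08e+06 and 1.55e+07 counts, so that 3 counts correspond to 0.197 to 0.360 CPM. Of 6 oligodendrocyte precursor genes, 5 were called higher in the glioma cells, but the surrounding cells held them too, at a summed 392 to 6944 CPM. All 8 microglia markers were lower in the glioma cells, yet none was at 0 in any glioma library. The library of glioma 3057E stood apart, with microglia markers summing to 1304 CPM where the other 11 gliomas held 127 to 489 CPM. Its counterpart, surrounding 3057E, was low in these markers, with 1011 CPM where the other 11 held 2683 to 8754 CPM. The codes 3108D and 3109D did not match between populations: Xist stood at 1591 CPM in glioma 3108D and 2.08 CPM in surrounding 3108D, and at 1.89 and 1079 CPM in the 3109D libraries. Tallies over tumours are therefore given over the other 10, and calls that change without these libraries or 3057E are given both ways.

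On chromosomes 11, 5, 8 and 4 ligands lie in clusters. In GENCODE release M21 of the mouse (GRCm38), the cluster on chromosome 11 runs from Ccl2 at 82035571 to the end of Ccl4 at 83664683, and also holds Ccl7, Ccl11, Ccl12, Ccl8, Ccl1, Ccl5, Ccl9, Ccl6 and Ccl3. On chromosome 5, Cxcl5, Cxcl3, Cxcl15, Cxcl1 and Cxcl2 lie between 90759360 and 90905938, and Cxcl9, Cxcl10 and Cxcl11 between 92321347 and 92365485. On chromosome 4, Ccl27a, Ccl21d, a copy of Ccl21b, Ccl27b, Ccl19 and Ccl21a lie between 41769467 and 42773993. On chromosome 8, Cx3cl1 (94772009 to 94782427) lies between Ccl22 (94745590 to 94751699) and Ccl17 (94810453 to 94812036). Exons of Ccl25, Ccl27a, Cxcl10, Cxcl11, Cxcl16 and Xcl1 overlap a gene of the opposite strand, which for Ccl25 is Elavl1 and for Cxcl10 is Art3. Whether strand was used in the counting is not given in the sources used here, so the levels of these 6 are uncertain.

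The CXCR2 ligands Cxcl1, Cxcl2 and Cxcl3 were high in 3 late libraries of surrounding cells, and Cxcl14 was the ligand with the highest level per length in glioma cells. Upstream sequences of these ligands and of the interferon-linked Cxcl10, 5 in all, are shown as examples. Each is the run of 250 bases that ends just before the RefSeq start site, 5′ to 3′ on the strand of the gene, in build GRCm38.p6. They cover chr5:90890995-90891244 (plus strand) for Cxcl1, chr5:90903649-90903898 (plus) for Cxcl2, chr5:90785851-90786100 (plus) for Cxcl3, chr5:92348890-92349139 (minus) for Cxcl10 and chr13:56296552-56296801 (minus) for Cxcl14. Capitals mark matches on either strand to GGG, any 4 bases and TCC, a kB-like motif of NF-kB factors, or to TTTC, any 2 bases and TTTC, an ISRE-like motif of interferon factors.
Cxcl1: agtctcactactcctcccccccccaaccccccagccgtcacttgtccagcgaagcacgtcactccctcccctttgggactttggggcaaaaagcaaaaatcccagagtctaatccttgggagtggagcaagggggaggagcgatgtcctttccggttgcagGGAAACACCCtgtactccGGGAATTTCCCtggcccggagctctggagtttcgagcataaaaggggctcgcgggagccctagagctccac
Cxcl2: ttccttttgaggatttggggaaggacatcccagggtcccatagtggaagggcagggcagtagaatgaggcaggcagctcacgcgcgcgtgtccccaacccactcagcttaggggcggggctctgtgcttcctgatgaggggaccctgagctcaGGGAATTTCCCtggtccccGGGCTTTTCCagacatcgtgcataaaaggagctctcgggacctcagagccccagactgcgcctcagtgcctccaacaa
Cxcl3: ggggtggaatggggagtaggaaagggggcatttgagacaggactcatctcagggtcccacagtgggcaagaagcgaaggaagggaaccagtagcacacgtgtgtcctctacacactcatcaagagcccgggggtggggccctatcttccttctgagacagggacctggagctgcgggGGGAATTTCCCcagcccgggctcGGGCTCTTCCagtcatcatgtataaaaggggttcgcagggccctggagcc
Cxcl10: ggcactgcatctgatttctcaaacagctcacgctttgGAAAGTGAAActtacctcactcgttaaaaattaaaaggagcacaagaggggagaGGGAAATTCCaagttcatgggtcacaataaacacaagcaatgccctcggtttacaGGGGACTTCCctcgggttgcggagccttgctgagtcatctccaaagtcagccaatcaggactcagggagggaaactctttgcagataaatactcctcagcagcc
Cxcl14: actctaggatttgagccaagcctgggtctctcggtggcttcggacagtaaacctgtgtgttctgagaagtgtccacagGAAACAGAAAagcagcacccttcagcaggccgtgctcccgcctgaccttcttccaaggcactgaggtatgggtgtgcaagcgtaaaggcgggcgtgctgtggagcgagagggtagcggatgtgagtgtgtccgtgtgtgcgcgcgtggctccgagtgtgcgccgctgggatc

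Cxcl1, Cxcl2 and Cxcl3 each held 3 kB-like matches, of which 2 overlap by all but 1 base and read as 1 run of capitals, and all 3 hold the run GGGAATTTCCC. Cxcl10 held 2 kB-like matches and 1 ISRE-like match, and Cxcl14 held 1 ISRE-like match. In Cxcl10, the only one of the 5 with both motifs, the kB-like matches did not overlap the ISRE-like match. In windows of 300 bases around the start site (250 before and 50 after), 28 of the 40 ligand symbols had a RefSeq window, and these symbols had 34 windows in all. A kB-like match stood in 9 of the 34 windows, which is 26.5%, against 19.2% of 32851 windows of all genes. An ISRE-like match stood in 3 of 34, or 8.82%, against 3.44% of all windows. A match is a description of these letters and not a site of binding.

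The first comparison set the 12 glioma libraries against the 12 surrounding libraries, each stage having equal weight. Of the 23 ligands tested, 18 were lower in the glioma cells and 3 were higher, namely Cxcl14, Ccl25 and Cx3cl1, while Ccl27a and Ccl28 were not called. Lower among the 13 that also entered the fit over glioma cells were Ccl2, Ccl3, Ccl4, Ccl6, Ccl9, Ccl12, Ccl22 and Cxcl16. Those 13 also held the 3 called higher, Ccl27a and Ccl28. The other ligands called lower passed the count filter only through the surrounding libraries where they were high, so their direction was favoured in advance. Calls are adjusted p under 0.05 in edgeR's quasi-likelihood test with Benjamini-Hochberg adjustment over 18810 genes, of which 24.2% were called lower and 22% higher (46.3% in all). The median log2 fold change of the ligands was -4.69, against 0.06 for all genes. In bulk RNA, fewer cells of a type and less RNA per cell cannot be told apart. Markers of several other cell types were lower in the glioma cells too. These were all 8 microglia, 7 of 8 monocyte and border macrophage, 6 of 6 endothelial, 6 of 6 fibroblast and 6 of 6 T and NK cell genes. Of these lists 8, 3, 4, 5 and 0 genes, in this order, entered the fit over glioma cells. For the rest a lower call was favoured in advance. The list of monocyte and border macrophage genes also held 1 gene called higher. Of 6 astrocyte genes 3 were lower and none higher, and of 5 neuron genes 1 was higher and none lower. The part of these cells in the result was not tested. In 6 of the 23 ligands (Ccl2, Ccl5, Ccl9, Cxcl10, Cxcl13 and Cxcl16) every glioma library lay below every surrounding library, as in 5.58% of genes, and in none did every glioma library lie above (0.728% of genes). Without 3057E, 20 ligands were called lower and 3 higher, against 27.4% and 23.7% of genes. Without 3108D and 3109D, 20 were called lower and 2 higher, against 22.3% and 13.3% of genes. Both counts of 20 include Ccl24 and Cxcl3, which entered those fits only through the late surrounding libraries where they were high.

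**Figure D1:**
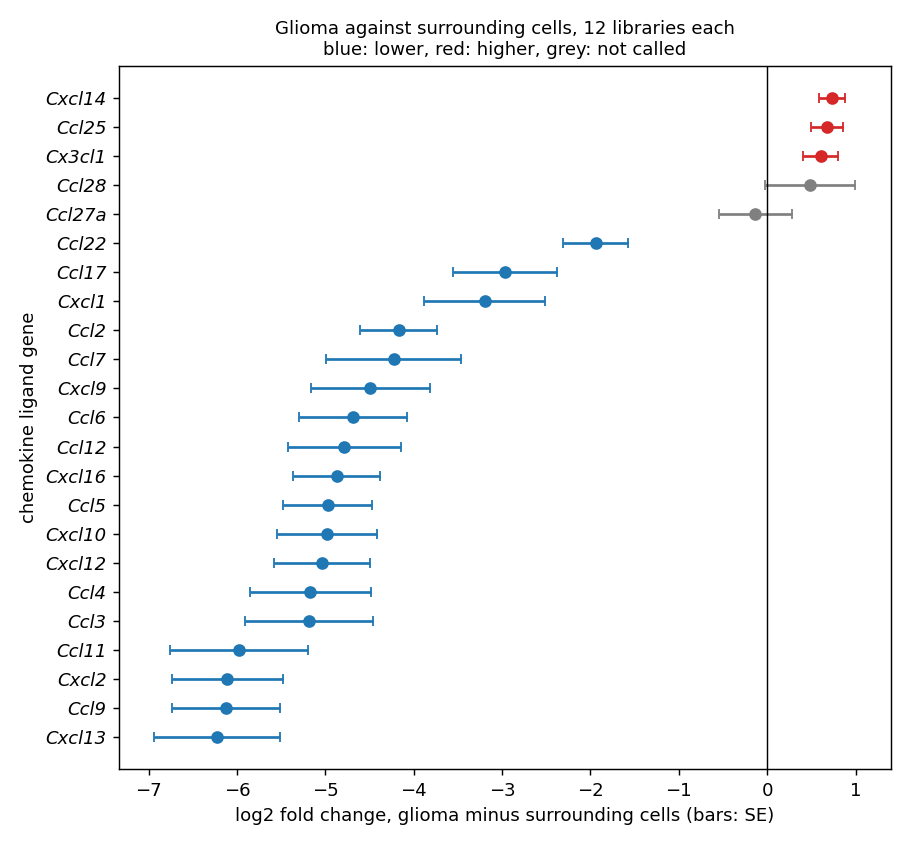
Log2 fold change of the 23 tested chemokine ligands, glioma minus surrounding cells (x axis), with the standard error as bars and one ligand per line, coloured by call. 18 ligands lie left of 0 as called lower, from Cxcl13 at -6.22 to Ccl22 at -1.94, and the 3 called higher, Cxcl14, Ccl25 and Cx3cl1, lie between 0.61 and 0.74.

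Ligands of CCR2, the receptor of inflammatory monocytes, were lower in the glioma cells. Ccl2 (ENSMUSG00000035385) ranged over 5.94 to 165 CPM in surrounding libraries, with a median of 13.6 CPM, and at 0.422 to 3.97 CPM in glioma libraries, with a median of 0.893 CPM. The populations did not overlap, and the fold change was -4.17 ± 0.43 (log2, SE). Ccl12 had medians of 28.8 and 0.438 CPM (-4.79 ± 0.64) and overlapped through the tumour 3057E, with 8.85 CPM in its glioma cells and 5.72 CPM in its surrounding cells. Ccl7 had medians of 1.52 and 0 CPM (-4.22 ± 0.77) and was lower in the glioma cells of all 10 tumours with matching codes.

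The macrophage and microglial products Ccl3, Ccl4, Ccl6 and Ccl9 were lower too. Ccl3 (ENSMUSG00000000982) ranged from 17.8 to 255 CPM in surrounding libraries (median 133 CPM) and from 0.0845 to 33.8 CPM in glioma libraries (median 1.11 CPM), with a fold change of -5.19 ± 0.73. Ccl4 had medians of 42.2 and 0.376 CPM (-5.17 ± 0.68). In both genes the populations overlapped only in that glioma 3057E lay above surrounding 3108D. Ccl9 had medians of 64.3 and 0.301 CPM (-6.12 ± 0.61), and Ccl6 had medians of 99.6 and 1.83 CPM (-4.69 ± 0.61). Ccl5, a ligand made by T cells and activated myeloid cells, had medians of 13.4 and 0.322 CPM (-4.97 ± 0.50). Ccl5 and Ccl9 did not overlap between the populations.

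The eosinophil attractant Ccl11 ranged from 0.360 to 64.4 CPM in surrounding libraries and from 0 to 0.584 CPM in glioma libraries (-5.98 ± 0.78). Its glioma median was 0.0445 CPM, below 3 counts, so the size of this fold change is uncertain. Its surrounding levels were highest in 3054B at 64.4 CPM and in 3054C at 20.6 CPM. Ccl24, a ligand of the same receptor, was too low to be tested and held 0.0743 to 5.43 CPM in surrounding libraries and no more than 0.301 CPM in glioma libraries. The CCR4 ligands, which attract regulatory and helper T cells, differed least among the ligands called lower. Ccl22 had medians of 3.70 CPM in surrounding and 0.958 CPM in glioma libraries (-1.94 ± 0.37), and Ccl17 had medians of 0.776 and 0.0842 CPM (-2.97 ± 0.59). Within the early stage alone neither was called, with Ccl22 at -0.30 ± 0.62 (edgeR adjusted p = 0.812) and Ccl17 at 0.10 ± 0.88 (edgeR adjusted p = 0.958).

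Among CXC ligands, the neutrophil attractant Cxcl2 ranged from 1.15 to 322 CPM in surrounding libraries (median 9.94 CPM) and from 0 to 1.39 CPM in glioma libraries (median 0.179 CPM), a fold change of -6.11 ± 0.63. Cxcl1, bound by the same receptor, had medians of 0.601 and 0.0867 CPM (-3.20 ± 0.68). The interferon-induced CXCR3 ligands Cxcl10 (medians 19.7 and 0.367 CPM, -4.98 ± 0.57) and Cxcl9 (2.29 and 0 CPM, -4.49 ± 0.67) were lower in the glioma cells of all 10 tumours with matching codes. Cxcl12, which acts on CXCR4 and is known from vessels and meninges, had medians of 13.7 and 0.192 CPM (-5.04 ± 0.55). Cxcl13, a B cell attractant, was read with only 6 counts in all glioma libraries together, 10 of which were at 0, against 418 counts in surrounding libraries. Its fitted fold change of -6.22 ± 0.71 therefore depends on the prior count of the fit. The glioma medians of Cxcl1, Cxcl2, Cxcl9 and Cxcl12 also lay below 3 counts, so the sizes of their fold changes are uncertain too. Cxcl16, a membrane ligand of CXCR6, had medians of 65.2 and 1.71 CPM (-4.87 ± 0.49), and its populations did not overlap. Adjusted p of the 18 ligands called lower lay between 5.08e-08 for Ccl9 and 0.000594 for Cxcl1 (edgeR).

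Cxcl14 and Cx3cl1 went the other way and were abundant in both populations. Cxcl14 (ENSMUSG00000021508), whose receptor is not settled, ranged from 43.4 to 113 CPM in glioma libraries (median 71.0 CPM) and from 23.9 to 66.9 CPM in surrounding libraries (median 44.6 CPM). The ranges overlapped, but the glioma cells were higher in each of the 10 tumours with matching codes, and the fold change was 0.74 ± 0.15 (edgeR adjusted p = 0.000357). Cx3cl1 (ENSMUSG00000031778), the neuronal ligand of the microglial receptor Cx3cr1, ranged from 30.5 to 108 CPM in glioma libraries (median 70.4 CPM) and from 8.02 to 78.2 CPM in surrounding libraries (median 51.2 CPM). It too was higher in the glioma cells of each of those 10 tumours, with a fold change of 0.61 ± 0.20 (edgeR adjusted p = 0.0155). Without tumour 3229B its adjusted p was 0.0537 (edgeR), so that 2 ligands were then called higher. On chromosome 8 its neighbours Ccl22 and Ccl17 were both lower in the glioma cells. Of 5 neuron markers, 1 was called higher in the glioma cells and none lower, and their part in the level of Cx3cl1 was not tested.

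Ccl25, a thymus and gut ligand of CCR9, ranged from 4.63 to 14.4 CPM in glioma and from 3.07 to 8.72 CPM in surrounding libraries (0.68 ± 0.18, edgeR adjusted p = 0.00481). It was higher in the glioma cells of 8 of those 10 tumours, and its exons overlap Elavl1 on the other strand. Without 3108D and 3109D it was not called (edgeR adjusted p = 0.0543). The epithelial CCR10 ligands were not called: Ccl28 had medians of 1.80 and 1.26 CPM (0.48 ± 0.51, edgeR adjusted p = 0.463) and Ccl27a 1.51 and 1.09 CPM (-0.14 ± 0.41, edgeR adjusted p = 0.813). None of the 3 ligands called higher passed a fold of 2, a limit that 4.92% of genes passed upward, whereas all 18 called lower did, against 17.4% of genes.

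Ccl21b, a ligand of the lymph node receptor CCR7 with near-identical copies, was listed on an unplaced scaffold. It was counted in too few libraries to be tested, with 78 counts in glioma and 4 in surrounding libraries. It stood at 1.90 CPM in glioma 3229B, 2.85 CPM in glioma 3108C and 1.99 CPM in glioma 3108D. Surrounding 3054A held 0.480 CPM and the other 20 libraries none. The remaining 20 rows held at most 60 counts each over all libraries. Xcl1, the attractant of cross-presenting dendritic cells, had those 60 counts in surrounding libraries and 0 in each glioma library. Ccl8 had 57 counts, 44 of them in surrounding cells, and the other rows with any count were Ccl1, Ccl19, Ccl21a and its copy, Ccl21c, 1 further copy of Ccl21b, 2 of Ccl27a, Cxcl5, Cxcl11 and Cxcl17. No count was listed for Ccl20, Ccl21d, Ccl26, Ccl27b, Cxcl15 or for a copy each of Ccl19 and Ccl21b. Reads of the Ccl19, Ccl21 and Ccl27 copies could be split between rows, so each of these levels is uncertain.

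**Figure D2:**
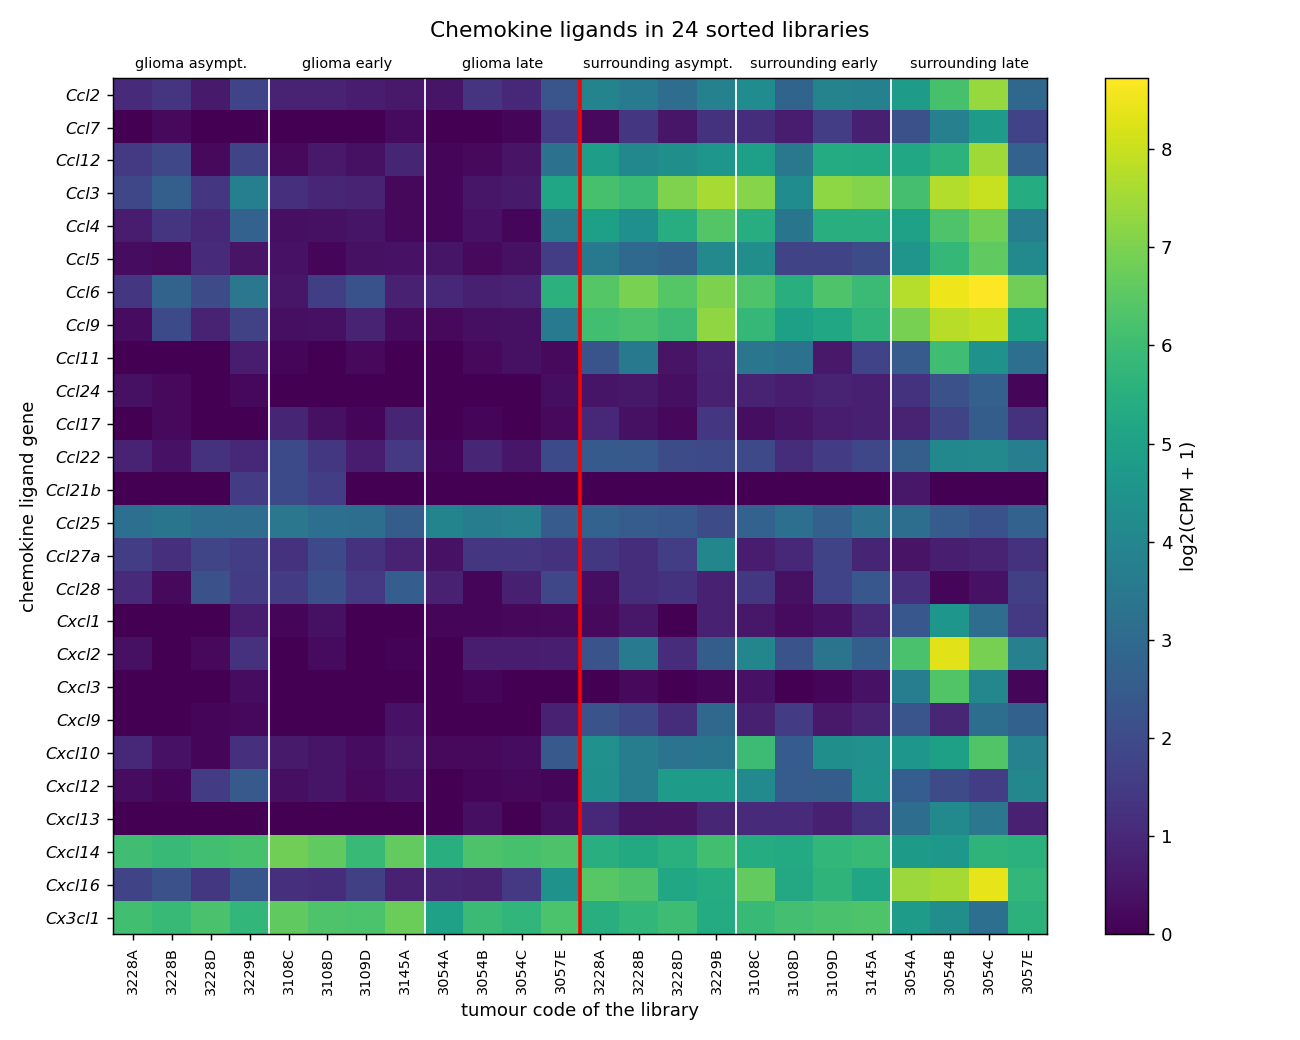
Log2(CPM + 1) of 26 chemokine ligands (rows, by receptor) in 24 libraries (columns, by population and stage, with the tumour code), as colour; the red line divides glioma from surrounding cells. Cxcl14 and Cx3cl1 are bright in both populations and Ccl25 is dimmer in both. Glioma 3057E is brighter than other gliomas in Ccl3 and Ccl6, and surrounding 3054A, 3054B and 3054C are bright in Cxcl2 and Cxcl3.

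Levels were compared between genes per kilobase of exon. Cxcl14 ranked at the top in each glioma group, with medians of 36.3, 52.4 and 40.3 CPM per kb in the asymptomatic, early and late stage, and Cx3cl1 ranked next with 16.1, 22.3 and 14.4 CPM per kb. Together they made up a median of 72.9%, 86.2% and 87.5% of the summed level of the 26 ligands in glioma cells, but 31.8% in glioma 3057E. In surrounding cells Ccl3 ranked at the top in every stage, with medians of 131, 180 and 184 CPM per kb, and the same pair made up a median of 9.62%, 10.4% and 2.71%. The summed level had medians of 69.3, 86.4 and 62.4 CPM per kb in the glioma groups and of 394, 484 and 916 CPM per kb in the surrounding groups. The late surrounding libraries spread widely, from 273 CPM per kb in 3057E to 1724 CPM per kb in 3054C.

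**Figure D3:**
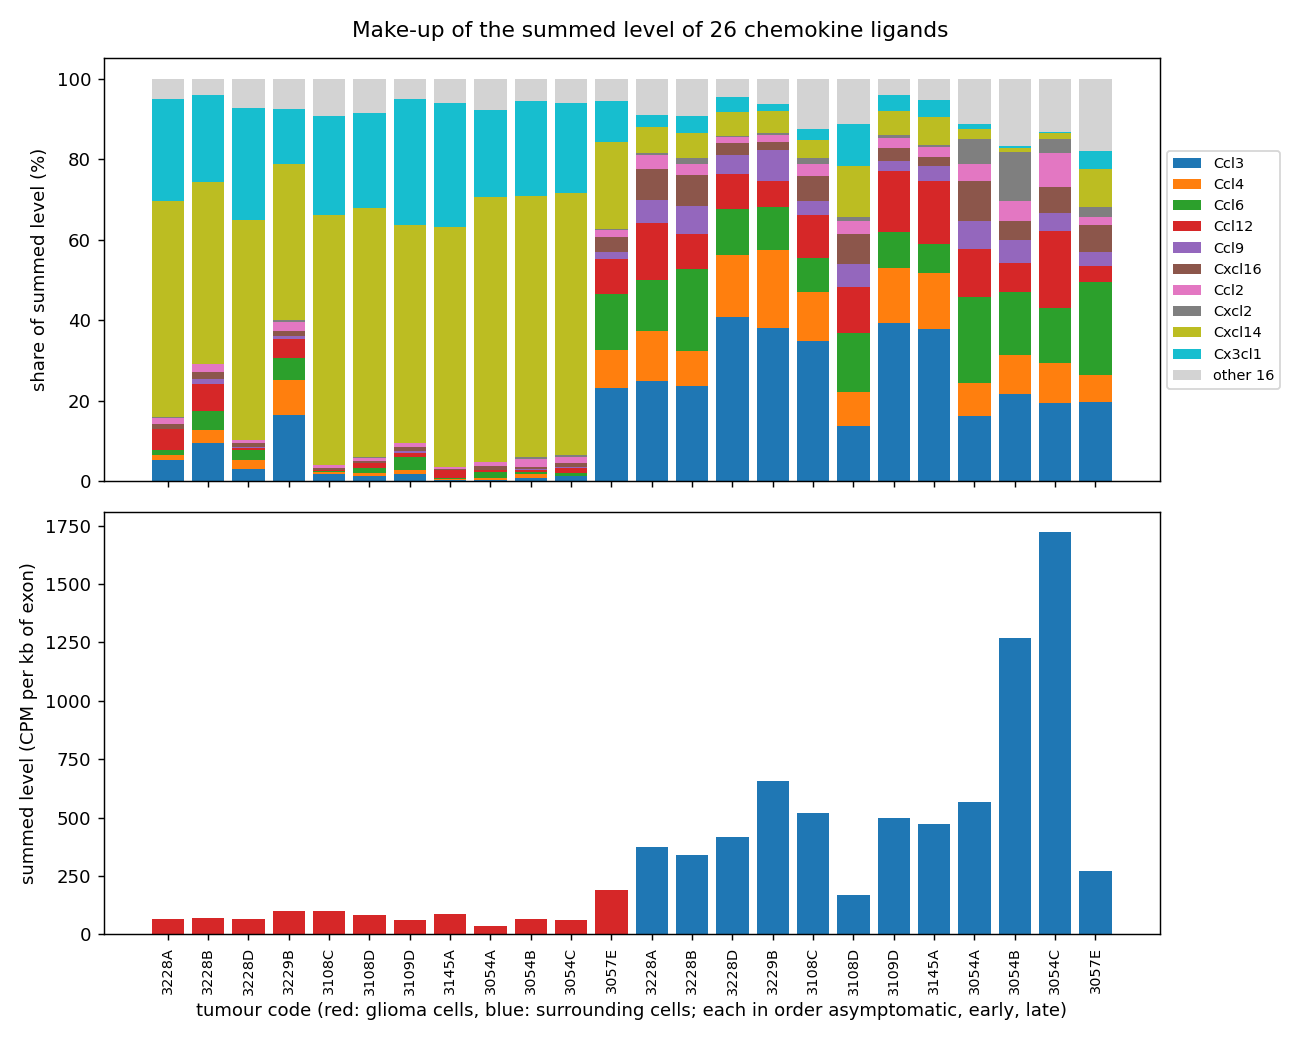
Top: share (%) of each of 10 ligands and of the other 16 in the summed level per kb of exon, by library. Bottom: the summed level (CPM per kb), glioma in red and surrounding cells in blue. Cxcl14 and Cx3cl1 fill most of each glioma bar except 3057E, at 31.8%, and the tallest bar is surrounding 3054C at 1724 CPM per kb.

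Surrounding cells were next compared between stages. Late against early symptomatic, 3 of 23 ligands were higher and none lower: the CCR4 ligand Ccl22, the CCR1 ligand Ccl6 and the CXCR2 ligand Cxcl2 (edgeR, adjusted p under 0.05), against 1.41% of 17616 genes called higher and 0.0681% called lower (1.48% in all). The median log2 fold change of the ligands was 1.77, against -0.00 for all genes, and 13 ligands had an unadjusted p under 0.05, as had 2901 of the 17616 genes. In 5 ligands (Ccl6, Ccl7, Ccl17, Ccl22 and Cxcl1) every late library lay above every early one, as in 5.05% of genes, and in Cx3cl1 every late library lay below, as in 2.15% of genes. Cxcl1 among them entered the fit only through late libraries. In Ccl22 the late libraries stood at 5.28, 15.8, 16.4 and 12.3 CPM in 3054A, 3054B, 3054C and 3057E, and the early libraries at 2.75, 1.19, 1.94 and 2.58 CPM in 3108C, 3108D, 3109D and 3145A. Every late library lay above every early one, with a fold change of 2.52 ± 0.41 (SE, n = 4 libraries per group, edgeR adjusted p = 0.0187). Asymptomatic libraries were in between, at 4.52, 4.45, 2.95 and 2.80 CPM in 3228A, 3228B, 3228D and 3229B.

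Ccl6, a rodent ligand made by macrophages, stood at 215, 358, 421 and 114 CPM in the late libraries, in the same order, and at 78.6, 44.1, 78.9 and 61.0 CPM in the early ones. The groups did not overlap, and 3057E was the lowest of the late libraries (2.03 ± 0.37, edgeR adjusted p = 0.0226). Asymptomatic libraries stood at 85.3, 123, 84.6 and 127 CPM. Cxcl2 stood at 72.8, 322, 121 and 12.996 CPM in the late libraries, at 15.0, 3.66, 9.15 and 5.25 CPM in the early ones and at 3.68, 10.7, 1.15 and 4.96 CPM in the asymptomatic ones. 3054A, 3054B and 3054C were far above all others, and 3057E lay below 3108C (3.95 ± 0.89, edgeR adjusted p = 0.0494). None of the 3 was called without 3108D, without 3109D or without 3145A, where 0% of all genes were called higher and the fold changes were 2.33 to 2.61 for Ccl22, 1.89 to 2.15 for Ccl6 and 3.71 to 4.01 for Cxcl2. Ccl6 and Cxcl2 were not called without 3054B or without 3054C, and Cxcl2 was not called without 3054A, 3108C, 3228A or 3229B either. Without 3057E, 12 of 25 ligands tested were higher (Ccl2, Ccl5, Ccl6, Ccl7, Ccl9, Ccl22, Ccl24, Cxcl1, Cxcl2, Cxcl3, Cxcl13 and Cxcl16) and 2 lower (Cx3cl1 and Cxcl12), against 9.18% and 9.7% of genes. Ccl24, Cxcl1 and Cxcl3 entered that fit only through the 3 late libraries where they were high, so nothing is read from their calls.

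The other CXCR2 ligands were also highest in 3054A, 3054B and 3054C, with 3054B at the top. Cxcl1 stood at 4.20, 22.7, 7.76 and 1.78 CPM in the late libraries and at 0.479, 0.198, 0.352 and 0.979 CPM in the early ones, and the groups did not overlap (4.10 ± 0.95, edgeR adjusted p = 0.0560). Cxcl3, too rarely counted to be tested, stood at 12.3, 81.7 and 15.4 CPM in 3054A, 3054B and 3054C, at 0.0743 CPM in 3057E and at no more than 0.359 CPM in the other 8 surrounding libraries. Without 3057E the fold changes were 4.33 ± 0.72 for Cxcl2 and 4.44 ± 0.87 for Cxcl1 (edgeR adjusted p = 0.00478 and 0.00778). Cxcl1 reached 10 counts in only 5 libraries and entered the fits only through the late ones. Nothing is therefore read from its fold changes or its call. The summed level of 5 neutrophil markers was 315 to 589 CPM in 3054A, 3054B and 3054C, 116 CPM in 3057E and 66.1 to 179 CPM in the other 8. In 10 of the 12 libraries 1 of the 5 was at 0, and 1 of the 4 tested was called higher in late than in early cells. Their part in the result was not tested.

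The monocyte attractants were highest in 3054C. Ccl2 stood at 27.1, 71.0, 165 and 6.68 CPM in the late libraries and at 17.8, 5.94, 13.9 and 13.3 CPM in the early ones, so that 3057E fell among the early libraries (2.36 ± 0.71, edgeR adjusted p = 0.130). Ccl7 stood at 3.48, 12.9, 26.4 and 2.38 CPM against 1.20, 0.594, 2.02 and 0.712 CPM, with no overlap (3.25 ± 0.85, edgeR adjusted p = 0.0863). Ccl12 was less apart, at 36.5, 48.8, 177 and 5.72 CPM against 29.5, 10.3, 40.3 and 39.7 CPM (1.12 ± 0.72, edgeR adjusted p = 0.450). The summed level of 8 monocyte and border macrophage markers reached 413 CPM in 3057E and 696 to 1233 CPM in the other 3 late libraries, while the other 8 held 63.9 to 376 CPM, and 4 of the 8 were called higher in late than in early cells. Their part in the result was not tested.

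The microglial pair moved less between stages. Ccl3 stood at 70.4, 211, 255 and 41.0 CPM in the late and at 139, 17.8, 150 and 137 CPM in the early libraries (0.34 ± 0.66, edgeR adjusted p = 0.821), and Ccl4 had a fold change of 0.72 ± 0.66 (edgeR adjusted p = 0.595). Both groups overlapped widely. Ccl5 stood at 22.7, 54.8, 96.1 and 16.9 CPM against 19.0, 2.48, 2.46 and 3.03 CPM, with only 3108C among the late values (2.78 ± 0.76, edgeR adjusted p = 0.0994). T and NK cell markers summed to 5.28 to 34.7 CPM in the late and 0.891 to 1.92 CPM in the early libraries, with 4 of 6 called higher, and their part in the level of Ccl5 was not tested. Cxcl16 stood at 169, 185, 336 and 54.0 CPM against 97.7, 37.6, 49.5 and 34.5 CPM (1.72 ± 0.51, edgeR adjusted p = 0.127). Cxcl13 stood at 7.67, 17.2, 9.998 and 0.743 CPM against 1.08, 1.09, 0.704 and 1.42 CPM, with the other 3 late libraries above and 3057E among the early ones (2.99 ± 0.73, edgeR adjusted p = 0.0667). Cxcl10 was not separated (0.43 ± 0.66, edgeR adjusted p = 0.771), with 61.8 CPM in 3108C above every late value except 79.9 CPM in 3054C.

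Cx3cl1, the neuronal ligand, went the other way. It stood at 26.4, 18.9, 8.02 and 48.0 CPM in the late and at 57.7, 68.2, 73.6 and 78.2 CPM in the early libraries. The groups did not overlap (-1.48 ± 0.41, edgeR adjusted p = 0.102). Cxcl12 stood at 5.04, 2.94, 1.98 and 15.3 CPM against 17.0, 4.75, 5.02 and 20.6 CPM (-0.91 ± 0.64, edgeR adjusted p = 0.490), and its groups overlapped. Without 3057E both were called lower, at -2.002 ± 0.35 and -1.86 ± 0.58 (edgeR adjusted p = 0.00576 and 0.0426). The oligodendrocyte precursor genes were low in the same libraries, at a summed 392 to 1962 CPM in 3054A, 3054B and 3054C, while 3057E held 5337 CPM and the other 8 libraries 2683 to 6944 CPM. The 5 neuron markers summed to 12.4 to 34.9 CPM in 3054A, 3054B and 3054C, to 69.4 CPM in 3057E and to 49.1 to 397 CPM in the other 8. None of the 6 precursor or 5 neuron genes was called in this comparison, and their part in the result was not tested.

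**Figure D4:**
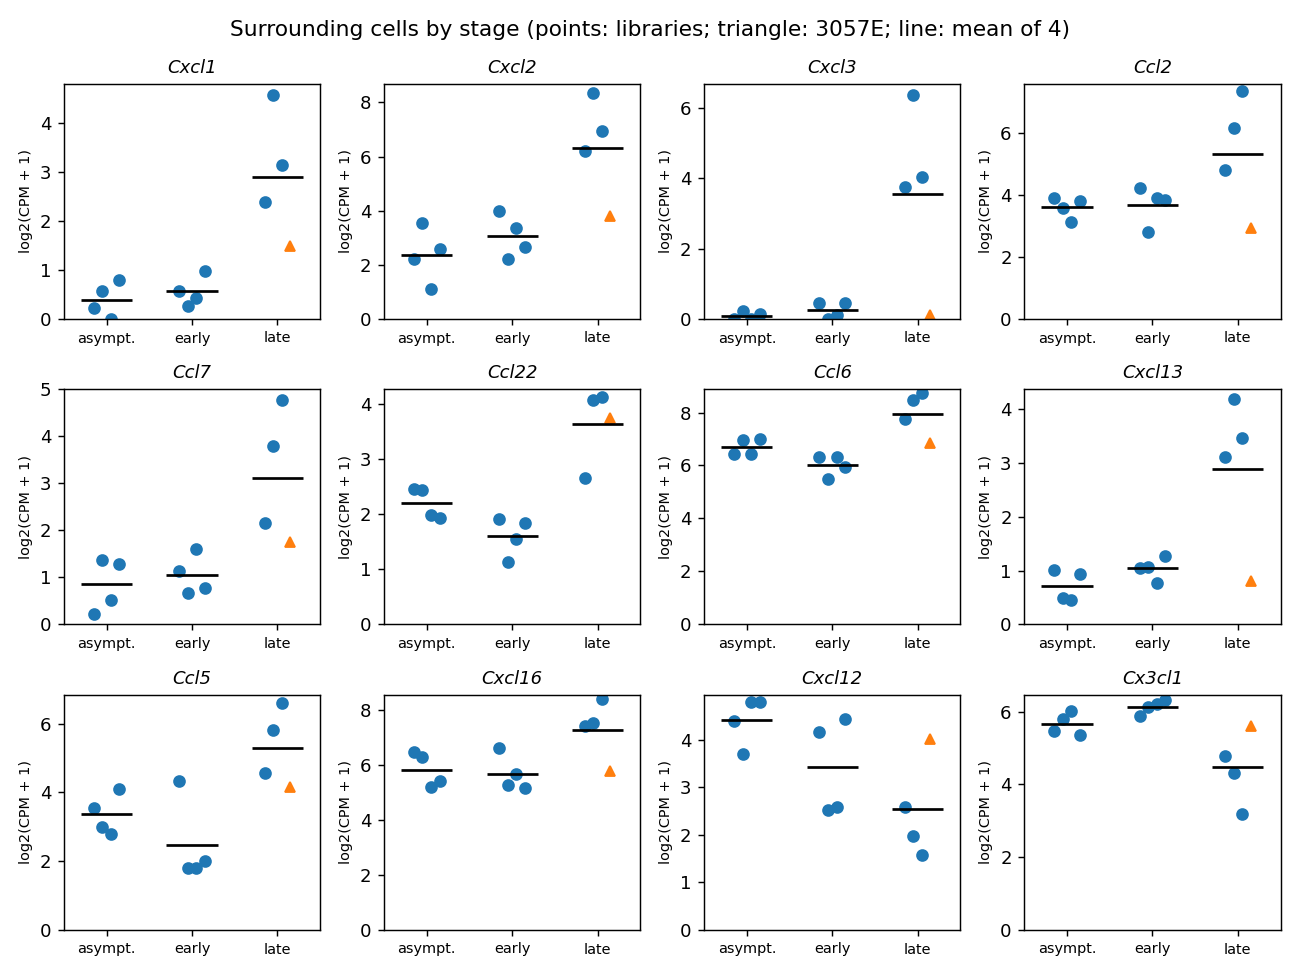
Log2(CPM + 1) of 12 ligands in surrounding cells by stage (x axis), with one point per library, a triangle for 3057E and a line at the mean of 4. In Cxcl3 the 3 late circles stand above every other library and the triangle lies near 0, and in Cx3cl1 and Cxcl12 the late circles are low.

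Against the asymptomatic stage, no ligand was called in late surrounding cells, where 0% of all genes were called by edgeR. The smallest adjusted p was 0.130, and 16 of 23 ligands had an unadjusted p under 0.05, as had 2822 of 17616 genes. The median of the ligands was 1.53, against -0.00 for all genes. The largest values were those of Cxcl1 (4.69 ± 0.98), Cxcl2 (4.66 ± 0.92), Cxcl13 (3.71 ± 0.75) and Ccl7 (3.60 ± 0.86). Without 3057E, 12 ligands were higher and 2 lower, against 7.58% and 8.83% of genes. Ccl24, Cxcl1 and Cxcl3 entered that fit only where they were high, and Cxcl1 entered the fit over all surrounding libraries in the same way. DESeq2 called 9 of 23 ligands higher with all libraries, against 3.99% of genes. This comparison and the preceding one share the late libraries.

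Early symptomatic against asymptomatic surrounding cells showed no call, with 0% of genes called and a median of 0.02 over the ligands, against -0.02 for all genes. By edgeR 2 ligands had an unadjusted p under 0.05, as had 645 of 17616 genes, namely Cxcl9 (-1.80 ± 0.69) and Ccl27a (-1.98 ± 0.84), and each was lower in the early cells. Cxcl9 stood at 3.68, 2.7, 1.22 and 6.5 CPM in the asymptomatic and at 0.718, 1.88, 0.528 and 0.801 CPM in the early libraries. Only 3108D among the early values exceeded an asymptomatic one. Ccl27a was led by surrounding 3229B at 15.1 CPM.

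In glioma cells the stages were compared over 13 tested ligands. None was called late against early (0.273% of genes called, 0.2% higher and 0.0728% lower), late against asymptomatic (0.158%, 0.109% higher and 0.0485% lower) or early against asymptomatic (0%) by edgeR. At an unadjusted p under 0.05 stood 5, 0 and 1 of the 13, and 3243, 2445 and 810 of 16494 genes. Cxcl14 stood at 65.5, 59.0, 67.2 and 71.0 CPM in the asymptomatic, at 113, 94.4, 59.7 and 97.2 CPM in the early and at 43.4, 77.2, 70.9 and 76.2 CPM in the late libraries. The early libraries 3108C, 3108D and 3145A were the highest, and the groups overlapped (early against asymptomatic 0.48 ± 0.22, edgeR adjusted p = 0.936).

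Cx3cl1 in glioma cells stood at 66.6, 59.8, 74.1 and 54.0 CPM in the asymptomatic, at 96.7, 78.3, 74.7 and 108 CPM in the early and at 30.5, 60.9, 52.5 and 75.6 CPM in the late libraries. Early libraries were above all asymptomatic ones, and late libraries overlapped both (late against early -0.70 ± 0.24, edgeR adjusted p = 0.158). Without 3057E the late level was called lower, at -0.92 ± 0.22 (edgeR adjusted p = 0.0151, with 8.61% of genes called lower and 8.58% higher). Ccl25 stood at 14.4, 11.7 and 12.96 CPM in 3054A, 3054B and 3054C and at 4.63 CPM in 3057E, and the earlier stages held 4.999 to 9.88 CPM.

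The myeloid ligands were high in 1 late glioma library, 3057E. Ccl3 stood at 2.63, 5.21, 1.59 and 12.6 CPM in the asymptomatic, at 1.33, 0.894, 0.789 and 0.132 CPM in the early and at 0.0845, 0.447, 0.531 and 33.8 CPM in the late libraries, the last being 3057E. The 4 asymptomatic libraries were above all early ones and above the 3 other late ones. Ccl6 stood at 1.58, 5.80, 3.03 and 10.1 CPM in the asymptomatic libraries, at 0.445 to 3.63 CPM in the early ones, at 0.716 to 1.01 CPM in 3054A, 3054B and 3054C and at 48.1 CPM in 3057E. With all libraries, late against asymptomatic gave 0.70 ± 1.35 for Ccl3, 0.54 ± 1.25 for Ccl4, 1.35 ± 1.26 for Ccl6 and 0.47 ± 1.16 for Ccl12. Without 3057E the same comparison gave -3.93 ± 0.89, -3.65 ± 0.93, -2.58 ± 0.76 and -2.98 ± 0.89 (edgeR adjusted p = 0.0115, 0.0199, 0.0390 and 0.0409), 4 of the ligands being lower and none higher, against 7.5% and 7.19% of genes. The microglia markers summed to 189 to 489 CPM in the asymptomatic and 127 to 194 CPM in the early gliomas, which overlapped. Late 3054A, 3054B and 3054C held 139 to 150 CPM, within the early range, and 3057E held 1304 CPM, where none of the 8 was at 0. The 8 monocyte and border macrophage markers summed to 64.3 CPM in glioma 3057E, among them Mrc1 at 21.2 CPM and Cd163 at 19.6 CPM with Ly6c2 and Plac8 at 0, and to 9.47 to 28.2 CPM in the other 11 gliomas. All 6 T and NK cell markers were at 0 in glioma 3057E. Of its 5 neutrophil markers S100a8, S100a9 and Ly6g were at 0, Retnlg stood at 0.0828 CPM and Csf3r at 25.7 CPM. The part of these cells in the result was not tested.

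Whether the gap between glioma and surrounding cells differed by stage was tested as an interaction. None of the 23 ligands was called, with 0% of genes called by edgeR, and 4 had an unadjusted p under 0.05 (Ccl17, Ccl22, Cxcl1 and Cxcl2, smallest adjusted p = 0.697), as had 1035 of 18810 genes. Of these 4, Cxcl1 entered the fit only through late surrounding libraries. Without 3057E 9 ligands were called, against 5.39% of genes, among them Ccl24, which entered only through late libraries, with Ccl6 and Ccl22 at edgeR adjusted p = 0.00767 and 0.0100. Within single stages, 16, 13 and 18 ligands were lower in the glioma cells of the asymptomatic, early and late stage, against 12.5%, 12.4% and 19.9% of genes. Ligands higher in the glioma cells numbered 0, 1 (Cxcl14) and 3, against 1.3%, 1.06% and 15.4% of genes (13.8%, 13.5% and 35.3% called in either direction).

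The receptors of these ligands were read beside them, from a list of 18. All 12 that could be tested were lower in the glioma cells, against 24.2% of genes. Only 3 of the 18 entered the fit over glioma cells. The rest of the 12 passed the filter through surrounding cells where they were high, so a lower call was favoured in advance. The 12 ran from Ccr2 at -8.22 ± 0.51 and Ccr3 at -7.30 ± 0.75 to Cxcr6 at -2.03 ± 0.43 (edgeR, adjusted p at most 0.000509). Without 3108D and 3109D, 13 of 14 were lower, where 35.6% of genes were called in either direction. Cx3cr1, the receptor of Cx3cl1, ranged up to 74.1 CPM from 3.04 CPM in 11 glioma libraries, stood at 275 CPM in glioma 3057E, and held 277 to 1741 CPM in the surrounding cells. Late against early, 5 of 12 receptors were higher in surrounding cells, against 1.41% of genes. These were Ccr7 (4.59 ± 0.71), Cxcr3 (4.28 ± 0.76), Ccr1 (3.70 ± 0.75), Ccr2 (3.58 ± 0.64) and Cxcr4 (2.78 ± 0.54). Without 3057E, 11 of 12 were higher, against 9.18% of genes. Without 3108D and 3109D, 0 of 14 were called, as were 0% of genes. Of 5 atypical receptors, which take up chemokines without the usual signal, Ackr2, Ackr4 and Ccrl2 were lower in the glioma cells. Without 3057E 4 of the 5 were lower, where 51% of genes were called in either direction. Without 3108D and 3109D 2 were lower, where 35.6% of genes were called. Ackr3, which binds Cxcl12, was not called (0.26 ± 0.29, edgeR adjusted p = 0.480), at 4.02 to 32.1 CPM in glioma and 6.55 to 26.6 CPM in surrounding libraries.

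The platelet and macrophage chemokines Pf4 (-5.22 ± 0.77) and Ppbp (-4.51 ± 0.88), whose symbols do not follow the naming rule, were lower in the glioma cells too. Neither entered the fit over glioma cells, so a lower call was favoured in advance. Without 3108D and 3109D 1 of the 2 was called lower, where 35.6% of genes were called in either direction. Of 16 cytokines and factors known to induce chemokines, all 14 that could be tested were lower in the glioma cells, against 24.2% of genes. Among them were Il1b (-6.46 ± 0.67), Nfkb2 (-3.00 ± 0.24), Irf8 (-2.62 ± 0.22) and Nfkb1 (-1.53 ± 0.14). In surrounding cells, 3 of the 14 were higher late than early, against 1.41% of genes. Among them were Il1b (3.10 ± 0.52) and Irf7 (2.82 ± 0.55), with edgeR adjusted p = 0.0207 and 0.0293. Without 3057E, 8 of the 14 were higher, against 9.18% of genes, and without 3108D and 3109D 0 were called, as were 0% of genes. Il1b stood at 187 to 453 CPM in the late and at 26.3 to 46.3 CPM in the early libraries, which did not overlap, and 3057E was among the high values.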

How the data were processed

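RNA of 24 sorted libraries from 12 mouse tumours was deposited in units of expected counts per gene. The submitters' processing notes name STAR 2.7.5c, RSEM 1.3.1 and the build GRCm38 for the steps the authors ran. The annotation, strand and use of molecular identifiers are not given in the sources used here. Counts were rounded, which moved no total by more than 95.2 counts. Genes were kept by edgeR's filterByExpr (at least 10 counts), scaled by TMM and tested with edgeR 4.0.16 (R 4.3.3) by robust quasi-likelihood fits, with Benjamini-Hochberg adjustment over all genes kept and calls at an adjusted p under 0.05. Populations and their interaction with stage were fitted over 24 libraries, stages over the 12 of a population. CPM were TMM-scaled over 24 libraries. DESeq2 1.42.0, other scaling and filters, the tumour as a block and each tumour left out were tried. The fits were tested on simulated data.

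All 46 ligands are accounted for; singly described are those kept by the fit or with a mean of at least 1 CPM in a group. The ligands, the other gene lists and the tests were chosen with earlier results of these data known. Each tumour code was taken as 1 tumour; whether codes that share a number came from 1 litter is not given, so p-values measure the spread between these samples. The codes were taken to pair the populations by origin. Correlations of deviations from the group means within a code ran from 0.0247 (3109D) and 0.0420 (3108D) to 0.482 (3108C). Glioma 3108D correlated best with surrounding 3109D, and glioma 3109D with surrounding 3108D. Glioma 3057E (0.116) correlated best with surrounding 3054A. Ddx3y stood at 63.4 CPM in glioma 3057E, 82.4 CPM in surrounding 3057E and 0 CPM in surrounding 3054A. It also differed within 3054C, at 2.96 CPM in glioma and 93.2 CPM in surrounding cells, where Xist stood at 1.06 and 1.98 CPM. Glioma 3054C (0.317) correlated best with its own code and was kept among those with matching codes. Positions came from GENCODE M21, upstream sequences from RefSeq. Results of some genes on the other lists are not reported here.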

Additional observations from a re-analysis of the deposited data

Results flagged for a closer look

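Within groups of 4 libraries, the gap of the highest or lowest library to its neighbour exceeded the 95% limit of Dixon's test in 14 of 97 groups with a mean of at least 1 CPM, on the log2(CPM + 1) scale. Chance alone marks about 1 in 20 groups. Glioma 3057E stood far above the other 3 late gliomas in 7 ligands known from myeloid cells. It held 8.85 CPM of Ccl12, 33.8 CPM of Ccl3, 12.1 CPM of Ccl4 and 48.1 CPM of Ccl6. It also held 10.8 CPM of Ccl9, 4.47 CPM of Cxcl10 and 21.4 CPM of Cxcl16. Its microglia markers summed to 1304 CPM, where late gliomas 3054A, 3054B and 3054C held 139 to 150 CPM, and their part in these values was not tested.

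Glioma 3054A was low among late gliomas in Ccl27a, at 0.338 CPM, and in Cxcl14, at 43.4 CPM. Surrounding 3229B was high among asymptomatic libraries in Ccl27a, at 15.1 CPM, and in Ccl9, at 155 CPM. Surrounding 3108D, whose code did not match between populations, was low among early libraries in Ccl3, at 17.8 CPM, and in Ccl4, at 9.41 CPM. Surrounding 3108C was high among early libraries in Ccl5, at 19.0 CPM.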

How the results depend on the processing

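Between populations, the calls for 18 ligands lower and 3 higher gave the same counts with the tumour as a block (replicate block: 3 and 18, against 28.6% and 25.8% of genes, and 0 for the interaction). With the 3108D and 3109D surrounding libraries exchanged in that block the counts were 3 and 18 too. The share of genes called there is not reported here, so these counts cannot be set against it. No ligand was higher over a fold of 2 or within the asymptomatic stage, and 1 was within the early stage, where Ccl17 turned to 0.10. Leaving out 1 tumour gave 18 to 21 lower (22.3 to 27.4%) and 2 to 3 higher (16 to 23.7%). In surrounding cells, late against early, leaving out 1 tumour gave 0 to 12 higher (0 to 9.18% of genes) and 0 to 2 lower (0 to 9.7%). Without 3108D and 3109D 0 were higher, as were 0% of genes, with a ligand median of 1.72. DESeq2 gave 11 higher (5.39% of genes) and 1 lower (1.14%), and a fit over all 24 libraries 1 lower (0.324%). Late against asymptomatic, leaving out 1 tumour gave 0 to 12 higher (0 to 7.58%) and 0 to 2 lower (0 to 8.83%), DESeq2 9 higher (3.99%) and the fit over 24 libraries 3 higher (0.638%). In glioma cells, leaving out 1 tumour gave 0 to 1 lower late against early (0 to 8.61%) and 0 to 4 lower late against asymptomatic (0 to 7.5%). Without 3057E late against asymptomatic turned to -2.98 for Ccl12, -3.93 for Ccl3, -3.65 for Ccl4 and -2.58 for Ccl6. Over all tumours left out in turn, these 4 reached at most 0.86, 1.502, 1.64 and 1.90. The interaction gave 0 to 9 calls (0 to 5.39%). The cause was not tested. No paired analysis was possible between stages because each tumour belongs to 1 stage. At these depths 3 counts were 0.197 to 0.360 CPM, which limits Cxcl3, Cxcl9, Cxcl13, Ccl7, Ccl11, Ccl17, Cxcl1, Cxcl2 and Cxcl12 in glioma cells. Their glioma medians lay below this range, so the sizes of their fold changes against surrounding cells, where tested, are uncertain.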
